A study of Mus musculus with 7 samples.

Results

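Cycling stromal cells of the mesenteric lymph node (mLN) were selected on measured counts: they are cells without a count of the endothelial gene Pecam1, with at least 1 count of the collagen gene Col1a2, and with at least 4 counts in all of Cdk1, Top2a, Mki67, Birc5, Ube2c and Nusap1. A count is a unique molecular identifier (UMI), that is, 1 captured RNA molecule. Where 1000 to 4600 genes were detected and mitochondrial UMIs made up no more than 4.5%, 400 cells met these criteria: 324 at birth (D0), 64 at day 10 (D10) and 12 at day 24 (D24). They were drawn from 5573 Pecam1-negative, Col1a2-positive cells of these ages and from 17692 cells in the whole data set. These criteria did not remove perivascular cells or fibroblasts of adjacent tissue, which the paper excluded from its stromal cells. The cells came from BALB/c mice kept under specific pathogen free conditions, and were sorted by FACS from enzymatically digested nodes as CD45- and CD24- before droplet-based 3′ sequencing. Each of D0, D10 and D24 was represented by 1 library, and the labels do not say how many animals each held. D56 and D300, the adult and the old age, were used only to ask whether the rule found cells there and to count replication RNA in non-cycling cells.

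A dividing cell first licenses and copies its DNA, which needs helicases, polymerases and a supply of nucleotides, and then builds a spindle and separates its chromosomes. The RNAs of these steps are made in waves, those of replication before those of mitosis, so a single cell shows which step it is in. In the perinatal node, lymphoid tissue organizer cells (LTo cells), known for CXCL13, MAdCAM-1 and RANKL (gene Tnfsf11), attract the first lymphocytes and are regarded as forerunners of fibroblastic reticular cells (FRCs), whereas CD34+ stromal cells lie around vessels and in the capsule.

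The rule found 10.3% of stromal cells cycling at D0 (exact binomial 95% interval 9.26 to 11.4), 4.47% at D10 (3.46 to 5.67) and 1.20% at D24 (0.623 to 2.09). These intervals cover counting error only, and with 1 library per age no test between ages was possible. After thinning of every cell to 4000 UMIs, the shares were 8.49%, 3.56% and 0.463%. The rule found 0 of 2438 stromal cells at D56 and 0 of 924 at D300, which allows shares of up to 0.123% and 0.325% when 3 counts are taken as the limit, or 0.151% and 0.398% by the exact binomial interval. Around the threshold, 46, 9 and 4 stromal cells at D0, D10 and D24 held 3 UMIs of the 6 genes and were left out, and 25, 6 and 5 held 4 UMIs and were taken in. The 6 genes together gave a median of 17.5 UMIs per cycling cell at D0, 11.5 at D10 and 5 at D24, with a highest cell of 100, 99 and 58 UMIs. The D24 cells were thus the fewest and lay nearest to the threshold.

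**Figure D1:**
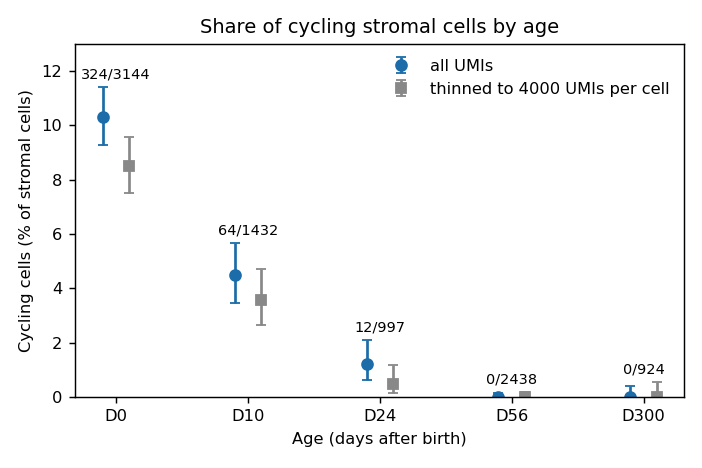
Share of cycling cells among Pecam1-negative, Col1a2-positive cells at each age, with all UMIs (circles) and after thinning to 4000 UMIs per cell (squares). Bars are exact binomial 95% intervals, and the numbers give cycling and stromal cells; the share was 10.3% at D0, and no cell met the rule at D56 or D300.

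Birc5, which acts in chromosome attachment and cytokinesis, was detected in 292 of 324 cycling cells at D0, Cdk1, the mitotic kinase, in 281 and Top2a, which untangles DNA, in 281. Nusap1, a spindle protein, was found in 236 and Ube2c, which helps to mark mitotic proteins for destruction, in 226. Mki67, the usual proliferation marker, was found in 212 cells (65.4%). At D24, Cdk1 and Top2a were each detected in 10 of 12 cells, but Nusap1 in 3 and Ube2c in 4. Col1a2 gave a median of 32 UMIs per cycling cell at D0, 29 at D10 and 28.5 at D24. These values chose the cells and are given as a description.

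The promoters of Cdk1, Mki67, Top2a and Ube2c are shown as the 4 of the 6 chosen genes that hold the motifs marked here; those of Birc5 and Nusap1 hold none of them. Each stretch of 300 bases, from 250 before to 50 after the start of the gene, is taken from RefSeq (GRCm38.p6). Capitals mark TTTGAA (the core of the cell cycle genes homology region) and CCAAT, each on either strand, and in the replication gene Rrm1 also TTCCCGCC, a site of the kind E2F factors bind; in Ube2c a pair of matches overlapped.
Cdk1, chr10:69352863-69353162, - strand: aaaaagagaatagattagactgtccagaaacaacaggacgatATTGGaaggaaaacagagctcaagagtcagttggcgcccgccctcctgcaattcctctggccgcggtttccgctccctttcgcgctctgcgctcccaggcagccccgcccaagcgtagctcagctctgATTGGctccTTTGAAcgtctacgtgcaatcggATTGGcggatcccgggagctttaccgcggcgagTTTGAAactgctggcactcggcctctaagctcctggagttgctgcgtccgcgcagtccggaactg
Mki67, chr7:135716330-135716629, - strand: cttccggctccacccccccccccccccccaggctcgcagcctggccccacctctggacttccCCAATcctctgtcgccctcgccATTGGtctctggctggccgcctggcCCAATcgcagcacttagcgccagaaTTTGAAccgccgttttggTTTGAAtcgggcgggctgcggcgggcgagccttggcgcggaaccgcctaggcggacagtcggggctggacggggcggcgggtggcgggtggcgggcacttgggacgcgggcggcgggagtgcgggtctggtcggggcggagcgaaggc
Top2a, chr11:99024140-99024439, - strand: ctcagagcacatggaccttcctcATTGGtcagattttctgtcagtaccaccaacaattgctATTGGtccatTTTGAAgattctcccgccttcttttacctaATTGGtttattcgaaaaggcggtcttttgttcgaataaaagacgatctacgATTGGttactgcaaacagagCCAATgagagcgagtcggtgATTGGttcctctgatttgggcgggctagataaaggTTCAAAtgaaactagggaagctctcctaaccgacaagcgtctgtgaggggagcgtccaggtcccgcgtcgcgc
Ube2c, chr2:164769679-164769978, + strand: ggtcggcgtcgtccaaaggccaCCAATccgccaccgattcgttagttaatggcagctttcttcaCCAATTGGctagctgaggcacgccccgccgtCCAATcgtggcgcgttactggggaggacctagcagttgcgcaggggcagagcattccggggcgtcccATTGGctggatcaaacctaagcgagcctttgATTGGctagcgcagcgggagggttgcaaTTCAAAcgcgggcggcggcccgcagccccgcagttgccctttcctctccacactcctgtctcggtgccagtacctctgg
Rrm1, chr7:102441445-102441744, + strand: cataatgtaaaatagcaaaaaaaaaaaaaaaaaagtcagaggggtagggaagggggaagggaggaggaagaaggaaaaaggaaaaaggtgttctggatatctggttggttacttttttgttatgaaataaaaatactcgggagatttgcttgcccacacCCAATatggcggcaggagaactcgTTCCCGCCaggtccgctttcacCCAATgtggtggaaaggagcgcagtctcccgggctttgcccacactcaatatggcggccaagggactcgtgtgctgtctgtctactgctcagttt
TTTGAA was present in 29 of the 37 promoters found for a fixed list of mitosis genes, in 2 of 27 found for DNA synthesis genes and in 17.9% of all 32851 promoters. CCAAT was present in 28 of the same 37, in 16 of the same 27 and in 37.4% of all promoters. TTCCCGCC was present in none of the 37 mitosis promoters, in 7 of the 27 DNA synthesis promoters and in 2.19% of all. A match to letters does not show that a factor bound there.

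To describe what else these cells carried, each cycling cell was paired within its age with a non-cycling stromal cell, that is, a cell with no UMI of the 6 genes, of nearly the same total UMI count. Pairs were found for 307, 64 and 12 cells, and 17 cells at D0 had no partner. Pairing was needed because cycling cells held more UMIs, with a median of 11181.5 UMIs at D0 against 6934 in all non-cycling cells. A rule that counts UMIs itself favours cells with more UMIs on the cycling side, so this gap may partly follow from the choice of cells. The paired cells had medians of 10815 and 10819 UMIs at D0, and 3360 and 3145 detected genes. UMIs were summed per age and side, levels are given as CPM, a gene's UMIs scaled to the same total in every sum, and the sums were compared with edgeR's quasi-likelihood test with age as a block. Of 7306 genes tested, 720 passed a Benjamini-Hochberg adjusted p of 0.05 (9.85%), 505 higher in cycling cells (6.91%) and 215 lower (2.94%). These counts include genes that chose the cells, and counts without them and the cell cycle lists follow below. Leaving out the D0 library reduced the count to 210 of 5521 genes, and leaving out the D24 library raised it to 1068 of 10303.

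The genes of DNA replication and of mitosis followed the rule genes, as the choice of cells implies, and are described without a test. All 14 replication licensing genes that passed the filter on low counts were above their partners' level, with a median log2 fold change of 1.57, and so were all 33 DNA synthesis genes (median 1.955) and 39 of the 41 listed mitosis genes, which passed that filter through the cycling cells (median 5.19). The median over all genes tested was -0.01. Rrm2, a subunit of the enzyme that makes DNA building blocks, stood at 260 CPM against 11.9 at D0, 206 against 5.88 at D10 and 158 against 0 at D24. Pcna, the polymerase clamp, stood at 186 against 54.7, 188 against 52.9 and 444 against 22.6 CPM. Cenpf, a kinetochore protein, stood at 236 against 5.46, 270 against 4.41 and 166 against 0 CPM. Hmmr, a spindle protein, had 501 counts in the cycling cells and none in their partners, which makes it at least 160-fold higher against a floor of 3 counts over the group. Among the regulators of these waves, Mybl2 had 34.6, 27.7 and 22.6 CPM against 1.61, 1.47 and 0, and E2f8 had 25.7, 20.4 and 22.6 against 0.643, 1.47 and 0.

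The D-type cyclins, which link growth signals to the start of the cycle, did not follow this pattern. Ccnd1 had 81.1, 105 and 75.3 CPM in cycling cells at the 3 ages and 83.9, 109 and 75.3 in their partners (log2 fold change -0.10 ± 0.16 SE). Ccnd2 had a log2 fold change of -0.40 ± 0.25 and Ccnd3 one of -0.23 ± 0.17. The direction for Ccnd1 flipped against all non-cycling cells, to 0.0936, and after thinning, to 0.0641. Of 14 inhibitors of the cycle, 4 were higher (Cdkn2c, Cdkn2d, Rbl1 and Cdkn1a), Tob1 was lower and 9 did not pass, beside 6.91% higher and 2.94% lower among all genes, with a median log2 fold change of 0.10. The summed list was lower in cycling cells, at 2862 against 3179, 1311 against 1558 and 1212 against 1671 CPM. Cdkn2c, which encodes the CDK4/6 inhibitor p18, had 140, 156 and 135 CPM in cycling cells against 16.1, 11.8 and 7.53, and Cdkn2d, its relative p19, had 123, 83.2 and 105 against 23.1, 24.98 and 30.1. These 2 genes were higher at every age and in 16 of 16 alternatives, whereas the Cdkn1a call held in 10 and that of Tob1 in 9, both being lost without the D0 or the D10 library.

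The levels of replication and mitosis genes varied from cell to cell. Sums over the licensing and DNA synthesis lists and over the mitosis list (with Ccna2, Ccnb1, Ccnb2, Cdc25c, Plk1, Aurka and Aurkb, and without the 6 chosen genes) were taken per cell after thinning to 4000 UMIs. At D0, 315 cycling cells gave a median of 18 replication UMIs (range 0 to 49) and 25 mitosis UMIs (0 to 109), and the sums ran against each other with a Spearman correlation of -0.57. The Spearman correlation was -0.59 over 63 cells at D10. The cells of an age share a library, a fixed depth and a threshold on related genes, so these values are a description. Replication UMIs exceeded mitosis UMIs in 142 of 315 cells at D0, in 27 of 63 at D10 and in 8 of 11 at D24, where the medians were 22 and 9. The D24 values rest on 11 cells.

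**Figure D2:**
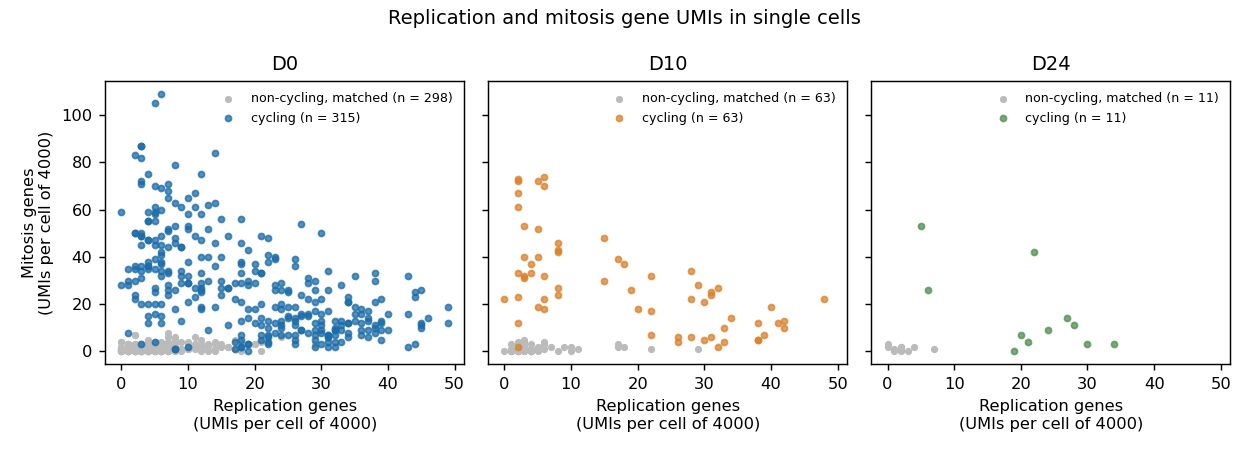
UMIs of replication genes (x axis) and of mitosis genes (y axis) in single cells thinned to 4000 UMIs, at D0, D10 and D24. Coloured points are cycling cells (315, 63 and 11) and grey points their UMI-matched non-cycling partners; cycling cells spread along both axes, whereas the highest non-cycling partner has 8 mitosis UMIs.

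A rule built on late cycle genes can miss cells at the start of replication. The median replication sum of D0 cycling cells, 18 UMIs of 4000, was reached by 29 of 1696 non-cycling cells at D0 (1.71%, exact interval 1.15 to 2.45), by 6 of 944 at D10, by 1 of 761 at D24, and by none of 1865 at D56 or 647 at D300. The non-cycling group therefore held a small number of cells at or above this level at D0, D10 and D24. Many cycling cells also lay below it (lower quartile 7 UMIs at D0). Non-cycling cells in replication at lower sums were not counted.

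Outside the chosen genes and the cell cycle lists, 590 of 7152 genes passed the test (8.25%), 376 higher (5.26%) and 214 lower (2.99%). The 10 with the largest folds upward were Kif15, Aspm, Arhgef39, Casc5, Cep55, Mxd3, Spag5, Hist1h2ap, Kifc1 and Esco2. Kif15, a spindle motor, had 44.98, 56.9 and 15.1 CPM at the 3 ages against 0 at each, which is at least 60.2-fold higher against a floor of 3 counts over the group. Aspm, a spindle pole protein, was at least 52.8-fold higher and Arhgef39 at least 32.7-fold. Casc5, a kinetochore scaffold (351 counts against 2), Cep55 and Spag5, of the midbody and the spindle, and Kifc1, another spindle motor, were higher at every age. So were Esco2, which locks sister chromatids together, and Mxd3, a member of the MYC network, at 152, 147 and 60.2 CPM against 1.61, 0 and 0. Hist1h2ap, a replication-dependent histone H2A with near-identical copies among which reads may be split, had 322, 133 and 399 CPM against 3.54, 0 and 0. Like the mitosis genes, these 10 had few or no counts in the partners and passed the filter on low counts through the cycling cells, so their values are a description.

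The question for these cells was which stromal lineage they belonged to. Tnfsf11, the RANKL gene (14:78277445-78308043, minus strand, GRCm38), was the 1 gene of 9 tested on the LTo list to pass (background 5.26% for higher genes). Its level was 81.7 CPM in cycling cells against 42.1 at D0, 210 against 113 at D10 and 30.1 against 30.1 at D24. The log2 fold change was 0.83 ± 0.17 SE (edgeR adjusted p = 0.0154). The difference was present at D0 and D10, and the D24 sums of 4 counts each could not show one. The call did not hold without the D0 or without the D10 library, after thinning, without the age block or in DESeq2, although the fold stayed between 0.51 and 0.94. By cells, a Tnfsf11 UMI was found in 49.2% of cycling cells at D10 thinned to 4000 UMIs (exact interval 36.4 to 62.1) and in 26.98% of partners (16.6 to 39.6); without thinning the shares were 71.9% and 43.8%. In endothelial cells of D10, which served as background at a median of 6035 UMIs, the thinned share was 1.19%.

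Cxcl13, the B cell attracting chemokine, stood at 190 CPM in cycling cells against 85.5 in partners at D0, at 160 against 101 at D10, and at 0 against 30.1 at D24. Its log2 fold change of 0.82 ± 0.27 missed the threshold (edgeR adjusted p = 0.0990), but it passed in 5 of 16 alternatives, among them thinning and the fit without D24 (adjusted p from 1.3e-04 to 0.975). Pthlh, a secreted hormone-like factor, had 45.9 against 24.4, 58.4 against 39.7 and 7.53 against 7.53 CPM (log2 fold change 0.72 ± 0.20, adjusted p = 0.0587). Madcam1, the adhesion molecule for gut-homing lymphocytes, had 105 against 53.7, 68.6 against 66.1 and 30.1 against 52.7 CPM (0.51 ± 0.25, adjusted p = 0.257), and its direction turned without the D0 library. The 10 listed LTo genes summed to 1427 against 1001 CPM at D0 and 1586 against 1330 at D10, but 1054 against 1137 at D24. Of 12 FRC genes tested none passed, Ccl19 among them (-0.29 ± 0.22, adjusted p = 0.470, and 0.32 against all non-cycling cells). The 14 FRC genes summed to 5039 against 4593 CPM at D0, 21598 against 26195 at D10 and 5503 against 19287 at D24. Most of the D24 gap lay in Ccl21a, a T cell zone chemokine with near-identical copies, at 2499 against 15583 CPM (log2 fold change -0.99 ± 0.43, adjusted p = 0.199). None of 10 perivascular genes passed either; Rgs5 had a log2 fold change of 0.31 ± 0.30, which turned to -0.15 without the D0 library.

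Genes of CD34+ stromal cells leaned the other way. Of 13 tested, 3 fell and none rose, against a background of 2.99% for lower genes, and the list's median log2 fold change was -0.87. The 14 listed genes summed to 3576 against 4863 CPM at D0 and 1921 against 3271 at D10, but 7061 against 6730 at D24. Gpc3, a cell surface proteoglycan that restrains growth factor signals, had 729 against 1035, 257 against 420 and 301 against 550 CPM (-0.72 ± 0.15, edgeR adjusted p = 0.0134). Ackr3, a scavenging chemokine receptor, had 28.2 against 54.0, 11.7 against 52.9 and 135 against 309 CPM (-1.26 ± 0.23, adjusted p = 0.00731). Dpep1, a dipeptidase, was the third (-1.31 ± 0.25, adjusted p = 0.0103). Without the D0 or without the D10 library Gpc3 and Dpep1 no longer passed, Dpep1 also not after thinning, and none of the 3 genes passed without the age block. Cd34 itself did not pass: it had 311 against 507 CPM at D0 and 128 against 269 at D10 but 324 against 256 at D24 (-0.67 ± 0.22, adjusted p = 0.104). Pi16, a marker of adventitial fibroblasts, had 97.3 against 290 and 24.8 against 226, and 527 against 437 at D24 (-1.47 ± 0.43, adjusted p = 0.0692). For both, the D24 sums went against those of the other ages, and Cd34 passed as lower in 8 and Pi16 in 10 of 16 alternatives, including the fit without D24. The list was picked with results of these data known.

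**Figure D3:**
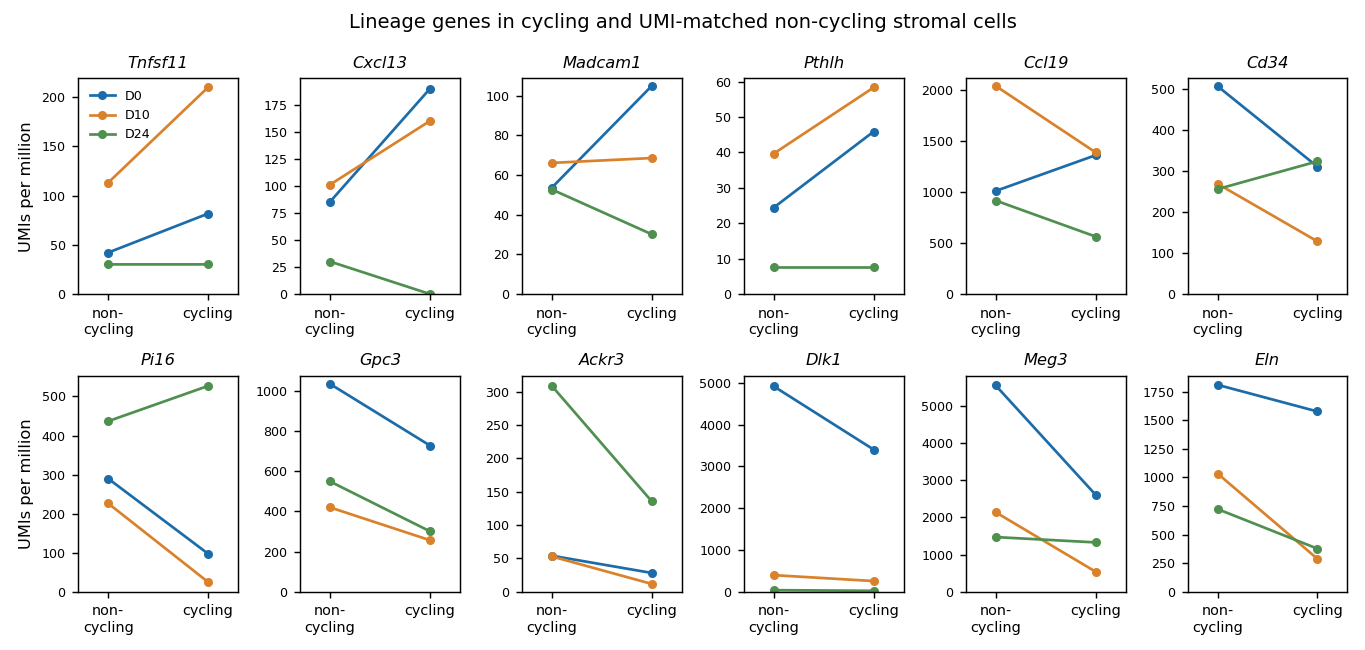
Levels of 12 lineage genes (CPM, scaled as in the text) in non-cycling partners and cycling cells, 1 line per age. Tnfsf11 was higher in cycling cells at D0 and D10, Gpc3, Ackr3, Dlk1, Meg3 and Eln were lower at all 3 ages, and Cd34 and Pi16 were lower at D0 and D10 but not at D24.

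Some matrix genes were lower in cycling cells. Of 29 tested 4 fell and none rose, beside 2.99% lower among all genes outside the cell cycle lists: Eln (elastin), Fbln5 and Fbln2 (fibulins of elastic fibres) and Dcn (decorin). The 30 listed matrix genes summed to 35447 against 50957 CPM at D0 and 38238 against 54480 at D10, but 44187 against 42111 at D24. Dcn had 7942 against 12404 CPM at D0, 8857 against 11080 at D10 and 6549 against 10449 at D24 (-0.61 ± 0.13, edgeR adjusted p = 0.0181). Of 9 genes of fibroblasts from around the node, 3 fell: Dlk1, the non-coding RNA Meg3 and the WNT binding protein Sfrp1. The 10 genes of that list summed to 12628 against 19524 CPM at D0 and 4257 against 7156 at D10, but 3275 against 2800 at D24. Dlk1 had 3400 against 4914, 255 against 397 and 22.6 against 37.6 CPM (-0.65 ± 0.16, adjusted p = 0.0304). Dcn and Fbln2 no longer passed without the D0 or the D10 library or in DESeq2, and Fbln5 not without D10. The Dlk1 call held in 9 of 16 alternatives and those of Meg3, Sfrp1 and Eln in 11. Dlk1, Meg3 and Sfrp1 were lost without the D0 or the D10 library, and Eln without D10 or D24. Tgfbr2, a receptor of TGF-beta, was the 1 gene of 20 growth factor receptors to pass (-0.91 ± 0.19, adjusted p = 0.0157), a share near that of all genes, and it held in 11 of 16 alternatives. Aldoa, a glycolytic enzyme, had 114 against 321, 127 against 372 and 331 against 610 CPM (-1.42 ± 0.17, adjusted p = 5.3e-04), the 1 call among 12 glycolysis genes. Of 16 early response and stress genes, Atf3, Dnajb1 and Zfp36 fell. These calls held in 14, 6 and 9 of 16 alternatives, and the summed list stood at 21255 against 21490, 10991 against 21829 and 28026 against 26009 CPM. None of 93 ribosomal protein genes passed, with a median log2 fold change of -0.14.

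Other cell types' RNA moved with some of these results. At D0, 11 pancreatic acinar genes summed to 848 CPM in cycling cells and 21549 CPM in partners, where 9 of 307 cells drew over 5% of their UMIs from them, and 9 of the 10 acinar genes tested were lower in cycling cells. Cela1 and Prss2 of this list, with Cela3b and Zg16, which are also known from acinar cells, lead the lower genes chosen by the naming rule, although Prss2 had 15 counts on each side at D24. Without those cells Cela3b and Prss2 no longer passed (log2 fold changes of -0.22 and -0.11), while 506 genes were called higher and 266 lower. At D24 the 12 partners held 1566 CPM of 9 mesothelial genes against 97.9 in cycling cells, 587 against 90.3 CPM of 11 endothelial genes, and 821 against 30.1 CPM of 10 blood cell genes. Ptx3 (4.90 against 14.8, 5.83 against 19.1 and 158 against 911 CPM) and Lgals3 (12.9 against 27.3, 5.83 against 58.8 and 52.7 against 745 CPM) differed most at D24. Dmkn, Sbsn, Tcp11l2 and Tmem150a completed the 10 with the largest falls, and Msln was the 1 mesothelial gene of 8 to pass. Schwann cell genes were too low to be tested. The part of the mesothelial, endothelial and blood cell RNA in these results was not tested.

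The share of cycling cells was also taken among stromal cells with and without a UMI of each lineage gene, which is not the same as cells that express it. At D0 and 4000 UMIs, 24.5% of 49 endothelial cells held a Ccl19 UMI, 16.3% a Pi16 and 22.4% an Mfap4 UMI, although these are stromal genes, against 4.08% for Cxcl13 and 2.04% for Rgs5. Madcam1, Cd34 and Ly6a are known in endothelial cells too, and for them 106 cells with at least 5 Rgs5 UMIs gave 6.60%, 51.9% and 13.2%. After thinning to 4000 UMIs, 19.2% of cells with a Madcam1 UMI were cycling and 7.19% of cells without, a difference of 12.04 percentage points (95% interval 7.91 to 16.9). The same shares were 15.6% and 7.72% for Cxcl13 (difference 7.88, 3.96 to 12.7) and 12.1% and 6.98% for Ccl19 (5.12, 2.78 to 7.70). They lay in the opposite order for genes of CD34+ cells, at 6.45% and 13.4% for Cd34 (-6.95, -9.59 to -4.54), 4.73% and 10.8% for Pi16 (-6.06, -7.93 to -4.10) and 4.85% and 10.1% for Ly6a (-5.29, -7.15 to -3.26; without thinning -1.58, -3.69 to 0.61). For the pericyte gene Rgs5 the shares were 8.33% and 8.51% (-0.18, -2.81 to 3.18), although without thinning they were 13.2% and 9.601%. Without thinning, the shares for Cxcl13 were 20.7% and 8.70% and those for Cd34 9.18% and 14.9%. At D10 most intervals included 0, as for Cxcl13 (0.19, -2.03 to 3.76) and Cd34 (-1.23, -3.16 to 0.94). Without thinning, the D10 differences turned to 1.33 for Cd34, 0.044 for Ly6a and 1.80 for Rgs5, from -1.23, -2.17 and -1.27. Cells here come from 1 library per age, so these intervals cover counting error only.

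**Figure D4:**
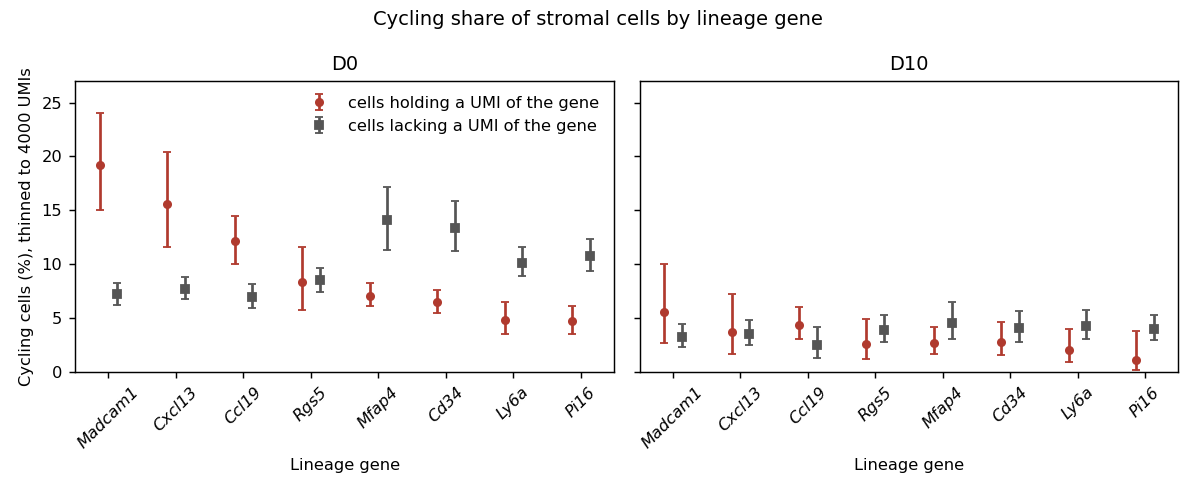
Percent of stromal cells that were cycling among cells holding (circles) or lacking (squares) a UMI of each lineage gene, at D0 and D10, after thinning to 4000 UMIs; bars are exact binomial 95% intervals. At D0 holders of Madcam1, Cxcl13 and Ccl19 lay above the cells lacking them and holders of Mfap4, Cd34, Ly6a and Pi16 below, and at D10 most intervals overlap.

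Among the 324 cycling cells at D0, 39 carried Cxcl13 and no Cd34, 184 carried Cd34 and no Cxcl13, 48 carried both and 53 neither. At D10 these numbers were 10, 29, 7 and 18, and at D24 they were 0, 7, 0 and 5. With all UMIs, cells with Cd34 alone were thus the largest class at each of these ages. At 4000 UMIs they were so at D0 only (147 of 315), while at D10 cells with neither gene were more frequent (32 against 21 of 63), and at D24 the classes held 6 and 5 of 11 cells. After thinning, 12.8% of paired cycling cells at D0 were Cxcl13-positive and Cd34-negative (exact interval 9.18 to 17.1) against 7.05% of their partners (4.41 to 10.6), and 47.3% against 64.4% were of the opposite kind. At D10 these shares were 14.3% against 6.35% and 33.3% against 38.1%, with overlapping intervals, and with all UMIs they were 15.6% against 14.1% and 45.3% against 43.8%. At D24, 7 of 12 cells on each side carried Cd34 alone. Absence of a UMI depends on depth: cycling cells with neither gene had a median of 8099 UMIs at D0, against 12827 for Cxcl13-positive and 11064.5 for Cd34-positive cells. In D0 endothelial cells a Cxcl13 UMI was found in 3 of 61. A Cd34 UMI was common in D0 cells with at least 5 Rgs5 UMIs, as given above. A Cd34 UMI alone therefore does not place a cell among CD34+ stromal cells.

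The 2 exclusive classes of cycling cells were compared at D0 (39 against 184 cells) and D10 (10 against 29), with UMIs summed per age and class. Of 5573 genes tested, 286 passed (5.13%), 111 higher in Cxcl13-positive cells (1.99%) and 175 lower (3.14%). Apart from Cxcl13, Cd34 and Col1a2, which chose the cells, these were 284 of 5570 genes (5.1%), 110 higher (1.97%) and 174 lower (3.12%). DESeq2 called 53 genes in place of edgeR's 286. With only D0 and D10 in the fit, p-values measure how far the class difference varied between 2 libraries.

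The cell cycle lists were also compared between the classes, beside the 5.1% of all genes called. None of 14 licensing genes or of 39 mitosis genes passed, with median log2 fold changes of 0.02 and -0.11 beside -0.01 for all genes. Cells of both classes met the same threshold on the 6 chosen genes, whose median of -0.04 is a description. Of 32 DNA synthesis genes Chaf1b alone passed, lower in Cxcl13-positive cells. Replication UMIs exceeded mitosis UMIs in 23 of 38 Cxcl13-positive cells at D0 and in 80 of 181 Cd34-positive cells, but in 3 of 9 and 13 of 29 at D10. Of 19 cyclin and kinase genes Ccnd2 passed as higher and Ccnd3 as lower, of 7 regulators Myc as higher, and of 10 inhibitors Cdkn1c and Gas1 as lower. Ccnd2 had 402 CPM in Cxcl13-positive against 189 in Cd34-positive cells at D0 and 262 against 88.4 at D10 (log2 fold change 1.31 ± 0.26 SE, edgeR adjusted p = 0.00897). Ccnd3 had 77.6 against 301 and 69.9 against 107 CPM (-1.54 ± 0.32, adjusted p = 0.0136). Myc, the growth regulator, had 118 against 44.9 and 43.7 against 6.31 CPM (1.62 ± 0.36, adjusted p = 0.0198). Cdkn1c, the CDK inhibitor p57, had 127 against 1857 CPM at D0 and 78.7 against 136 at D10 (-2.97 ± 0.55, adjusted p = 0.00671), and Gas1, a growth arrest gene, was lower too (-1.28 ± 0.34, adjusted p = 0.0437). DESeq2 called none of these 5 genes, and all but Cdkn1c were also lost in the smaller set of cycling cells that had a partner of their own class.

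Lineage genes did differ between the classes. Of 8 further LTo genes 4 rose in Cxcl13-positive cycling cells and none fell, beside 1.97% higher among all genes: Madcam1, Pthlh, Tnfsf11 and Icam1, an adhesion molecule. Madcam1 had 347 against 40.9 CPM at D0 and 175 against 41.0 at D10 (2.86 ± 0.31, edgeR adjusted p = 2.3e-04). Tnfsf11 had 282 against 17.7 and 376 against 151 CPM (2.77 ± 0.47, adjusted p = 0.00406). Of 8 FRC genes 3 rose: the BMP antagonist Grem1 (2.28 ± 0.41), Bst1 (2.63 ± 0.48) and the transcription factor Irf8 (2.36 ± 0.37). DESeq2 called none of these 3. Genes of other cell types moved as well: Cd74, the 1 blood cell gene tested, rose (2.46, edgeR adjusted p = 0.00671, lost in cycling cells with a partner of their class), of 8 perivascular genes Des and Kcnj8 rose and Tagln fell, and Wt1, the 1 mesothelial gene tested, fell. The part of such cells in these results was not tested. Ccl19 had 3630 against 552 and 2255 against 1398 CPM and missed the threshold (1.76 ± 0.48, adjusted p = 0.0535), though it passed in 5 of 7 alternatives. Outside the lists the largest rises were of Plppr1, Spic, Lrat, which stores retinol as ester, Ntng1 and Gm15478, an antisense gene whose reads may not be told apart from its partner's. Lrat had 91.9 against 5.05 and 78.7 against 25.2 CPM (3.35 ± 0.53, adjusted p = 0.00256).

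On the other side, 5 of 7 further genes of CD34+ cells and 10 of 29 matrix genes were lower in Cxcl13-positive cycling cells and none was higher, beside 3.12% lower among all genes. Col15a1, a basement membrane collagen, had 4.08 against 108 and 8.74 against 120 CPM (-4.35 ± 0.51, adjusted p = 4.4e-04 by edgeR). Lox, which crosslinks collagen and elastin, had 4.08 against 174 and 8.74 against 78.9 CPM (-4.81 ± 0.51, adjusted p = 2.3e-04), and Fbn1 (fibrillin) 34.7 against 272 and 17.5 against 268 CPM. Pi16, Gpc3, Cd248 and Crip1 were lower, and so were Fbln5, Fbln2, Mgp, Postn, Mmp2, Tnxb, Col6a2 and Col5a1. DESeq2 did not call Pi16, Cd248, Fbln2, Mmp2, Col6a2 or Col5a1, and Mmp2 and Col5a1 passed in 3 of 7 alternatives. Of 8 genes of surrounding fibroblasts, 5 were lower: H19, Dlk1, Igf1, Sfrp1 and Mfap2, of which DESeq2 did not call Dlk1, Sfrp1 or Mfap2. H19, an imprinted RNA, had 337 against 2080 and 35.0 against 353 CPM (-2.73 ± 0.35, adjusted p = 6.5e-04). Igf2r, the receptor that clears IGF2, was the 1 growth factor receptor of 18 to pass (-1.87 ± 0.36, adjusted p = 0.00857), a share near that of all genes. Outside the lists Gap43 was at least 5.70-fold lower against a floor of 3 counts over the group, and Qpct, the opioid precursor gene Penk and Igfbp6 were also lower at both ages. Penk had 16.3 against 402 CPM at D0 and 0 against 41.0 at D10.

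The same comparison was made between non-cycling cells of the 2 classes, matched on UMIs to the cycling ones (25 and 180 cells at D0, 10 and 29 at D10). Of the 284 genes, 267 could be tested there; 266 had the same direction and 196 passed as well. Among all 4222 genes tested in non-cycling cells 403 passed, and how often directions agreed over all genes was not counted. Pi16 had 26.6 against 369 CPM at D0 and 0 against 664 at D10 in non-cycling cells, a log2 fold change of -4.61 ± 0.62 beside -2.74 ± 0.42 in cycling cells. Cdkn1c had 98.8 against 2385 and 44.2 against 626 CPM (-4.28 ± 0.31). Ccnd2 differed by 0.57 ± 0.23 (edgeR adjusted p = 0.191) and Igf1 by -0.78 ± 0.55 (0.466), beside 1.31 and -2.19 in cycling cells. Whether the class difference itself changed with cycling was tested by an interaction term. No gene of 5366 passed (edgeR, 0.0%; smallest adjusted p 0.302, with 204 genes at an unadjusted p under 0.05), and none did in DESeq2, where 79 were under 0.05. On simulated sums of this design the interaction test found 53 of 100 genes changed 4-fold, all of them well expressed. Smaller changes, or changes in weaker genes, could have gone unseen.

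**Figure D5:**
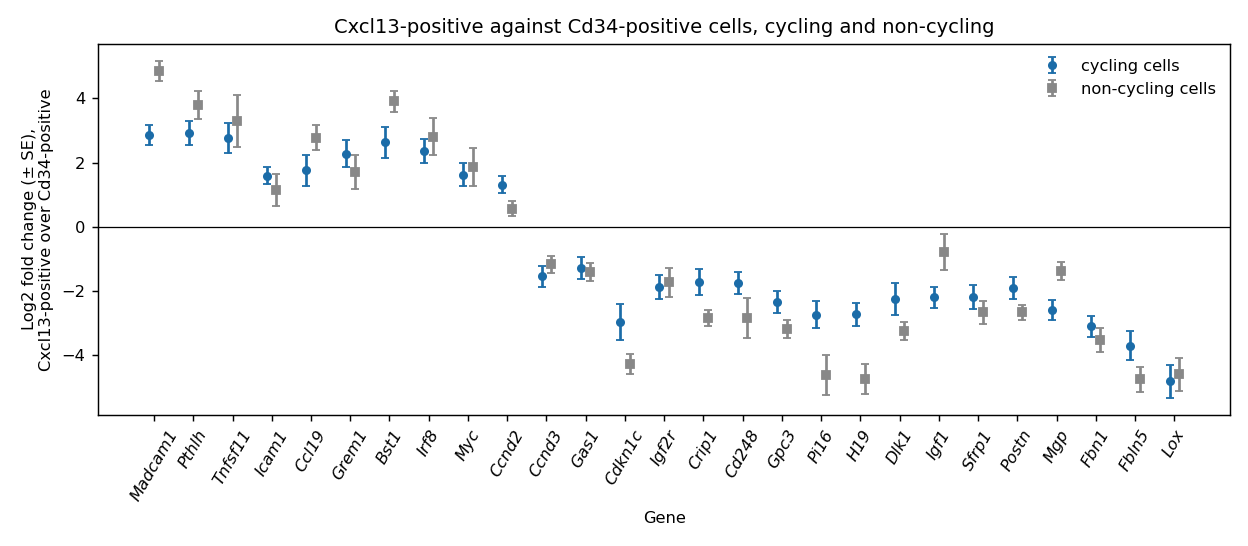
Log2 fold changes (points, with bars of 1 SE) of 27 genes between Cxcl13-positive and Cd34-positive cells, in cycling cells (blue circles) and in UMI-matched non-cycling cells (grey squares) of D0 and D10. Every gene shown lies on the same side of 0 in both, as at 2.86 and 4.85 for Madcam1 and -4.81 and -4.60 for Lox.

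The cycling cells of the 3 ages were not alike in the genes they carried. Dlk1 fell from 3400 CPM at D0 (exact Poisson 95% interval 3337 to 3464) to 255 at D10 (219 to 296) and 22.6 at D24 (4.66 to 66.0). H19 stood at 1540 CPM (1498 to 1583), 190 (158 to 225) and 203 (134 to 296), and Cdkn1c at 1226 (1188 to 1264), 114 (89.9 to 142) and 120 (68.8 to 196). Igf2, the fetal growth factor, had 152 CPM at D0, 13.1 at D10 and 0 at D24. Dlk1, H19 and Igf2 are on the list of fibroblasts from around the node, and the part of such cells in these falls was not tested. In the opposite order, Ly6a stood at 153 CPM (140 to 167), 233 (199 to 273) and 1513 (1311 to 1737), and Ly6c1 at 26.0, 55.4 and 527 CPM. Tnfsf11 was highest at D10, at 210 CPM (177 to 247), against 81.7 at D0 and 30.1 at D24. The non-cycling partners had Dlk1 at 4914, 397 and 37.6 CPM and Ly6a at 413, 356 and 888 CPM. These are single libraries, the intervals cover counting error only, and an age cannot be told apart from its library.

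Libraries also differed in the sex of the animals. Xist was detected in 322 of 324 cycling cells at D0 and in all 12 at D24, with no count of 4 Y-linked genes there. At D10 Xist was found in 10 of 64 and a Y-linked gene in 32 of 64 cycling cells, beside 211 and 466 of 1048 non-cycling ones, so the D10 library held cells of both sexes in both groups.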

How the data were processed

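Per the submitters' processing notes, Cell Ranger 2.0.0, STAR and the build mm10 were used; the authors deposited raw UMI counts per gene symbol and cell as 1 merged matrix. The notes also name Seurat 2.3.3. Cell names give an age and a running number, so barcodes shared between libraries could not be counted, and the D56 and D300 libraries, 2 each by the labels, could not be told apart. Cells with 1000 to 4600 genes and at most 4.5% mitochondrial UMIs were kept. Partners were matched within an age, without reuse, to within 0.05 in log10 UMIs. Sums held 132843 to 3267882 UMIs per cycling group. Sums were tested with edgeR 4.0.16 (R 4.3.3), after filterByExpr and TMM scaling, with age as a block, and DESeq2 1.42.0 as an alternative; SE is the fold divided by the square root of F. P-values measure how far the difference within a library varied between 3 libraries (2 for the comparison of classes), not stated to be separate animals. In that spread, age and library cannot be told apart. Members and gene lists were chosen with earlier results of these data known. Named genes outside the cell cycle lists were the 10 (classes: 5) with the largest fold each way among those passing, at 20 CPM or more and the same direction at every age. No doublet caller was run; an alternative left out cells with a UMI of Cdh5, Kdr, Ptprc or Epcam. Endothelial background cells had UMIs of Pecam1 and Cdh5 and none of Col1a2. Tested on simulated data, the paired comparison recovered 72 of 100 genes changed 2-fold and 100 of 100 changed 4-fold among 7095 tested (4 false calls), the class comparison 28 and 91 among 5739, and the interaction 10 and 53 among 5445. The changed genes of the simulation were all well above 20 CPM and had a fixed spread between sums, so recovery of weaker genes was not tested. Intervals are exact (95%), those of share differences by Newcombe's method. Gene positions are from GENCODE vM21 (GRCm38).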

Additional observations from a re-analysis of the deposited data

Results flagged for a closer look

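The filters on cells removed cells that met the gene rule and entered no comparison. There were 105 of them at D0, 25 at D10, 7 at D24 and 1 at D56, where no kept cell met the rule. At D0, 26 of these cells had over 4600 detected genes and 79 over 4.5% mitochondrial UMIs; at D10 all 25 and at D56 the 1 cell were removed by their mitochondrial share. With these cells kept, 834 genes passed between paired cells in place of 720, 562 higher and 272 lower.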

How the results depend on the processing

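For paired cycling and non-cycling cells, 720 genes passed in the reported fit (505 higher, 215 lower). All non-cycling cells as comparators gave 1704 (931 and 773), 5 partners at D10 and D24, a choice made after seeing the data, 1281 (739 and 542), no filter on low counts 1232 (727 and 505), DESeq2 355 (301 and 54), thinning to 4000 UMIs 340 (243 and 97), and no age block 306 (295 and 11). With at least 8 UMIs of the chosen genes, 470 genes were lower. Leaving out an age gave 210 to 1068 genes (167 to 703 higher, 43 to 365 lower), lowest without D0 and highest without D24. The cause of these shifts was not tested. For the classes of cycling cells, 286 genes (111 higher, 175 lower) became 577 (257 and 320) with at least 2 UMIs of the class gene, 492 (177 and 315) without the filter, 140 (70 and 70) after thinning, an even split in place of 38.8% higher, 53 (15 and 38) in DESeq2, and, added after seeing the data, 115 (41 and 74) in cycling cells with a partner of their class; non-cycling cells in their place gave 403. The interaction, with none, gave 16 without the filter. Of the named genes followed through these settings, none that passed turned direction; of all 267 class genes that could be tested in non-cycling cells, 1 did. Among genes that did not pass, leaving out an age gave -0.16 to 0.66 for Madcam1, -0.15 to 0.96 for Rgs5, -1.13 to 0.00203 for Ly6a and -0.97 to 0.0839 for H19, the latter pair passing without D24; Ly6a went to 0.11 without the age block, Ccl19 to 0.32 both against all non-cycling cells and at 2 UMIs of the chosen genes, Rgs5 to -0.27 and Ccnd1 to 0.0936 against all non-cycling cells, and Ccnd1 to 0.0641 after thinning and 0.18 at 2 UMIs.

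Cycling shares at D0, 10.3% with all UMIs, were 8.49% after thinning, and 1.20% at D24 became 0.463%. Differences between holders and non-holders at D0 moved, with thinning, from 12.01 to 7.88 percentage points for Cxcl13, from 7.53 to 5.12 for Ccl19 and from -1.58 to -5.29 for Ly6a, and turned from 3.61 to -0.18 for Rgs5. With at least 2 UMIs of the lineage gene they were 17.5 for Cxcl13, 23.1 for Madcam1 and 13.8 for Ccl19. Levels moved beyond their counting interval after thinning for Cxcl13 at D10 (194 CPM), Ccl19 at D0 (1244) and D10 (1266), Cd34 (334), Ly6c1 (34.4), H19 (1594), Dlk1 (3531) and Cdkn1c (1284) at D0, and without cells holding Cdh5, Kdr, Ptprc or Epcam for Cxcl13 (166) and Ccl19 (1412) at D0 and Ly6a at D24 (1274). Beyond the block for age, which pairs the sums of each library, no replicate numbers could be used. No paired analysis was possible because the numbered replicates of D56 and D300 are not told apart in the matrix and the other ages have 1 library each. Ages could not be left out of the class comparison or the interaction, which rest on 2. The 12 cells at D24 and 10 Cxcl13-positive cells at D10 limit what those sums can show.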
